A study of Mus musculus with 14 samples.

Results

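The genes described here are 38 members of the epidermal differentiation complex, a gene cluster of mouse chromosome 3, read in whole paws of newborn mice labelled as null or wild type for the keratin gene Krt9. They were chosen by symbol from the 56691 gene IDs of the count table, without the Sprr2 and Lce3 genes of the same cluster, and all 38 symbols matched 1 ID each. They fall into 5 families of 7 S100-fused proteins, 5 other envelope precursors, 15 late cornified envelope (LCE) proteins, 4 small proline-rich proteins and 7 S100 calcium-binding proteins. Of the 38, 37 passed the filter on low counts and were tested among 21619 genes. Lelp1 was not tested, since it held 4 counts over the WT P3 libraries, 5 over the Krt9-/- P0 libraries and 0 elsewhere.

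The complex encodes much of the cornified envelope, the protein shell that replaces the plasma membrane when a keratinocyte dies at the skin surface. Loricrin, involucrin, the small proline-rich and the LCE proteins are cross-linked into that shell by transglutaminases, while filaggrin bundles keratin filaments and is later cut into moisture-holding amino acids. Trichohyalin and S100A3 are mainly known from the hair follicle, and several of the small S100 proteins are expressed well beyond the epidermis.

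Paws labelled Krt9-/- gave 3 libraries on postnatal day 3 (P3) and 2 on the day of birth (P0), and paws labelled wild type (WT) gave 5 on P3 and 4 on P0. The groups were Krt9-/- P3 (1 male and 2 females), WT P3 (3 males, 2 females), Krt9-/- P0 (1 male, 1 female) and WT P0 (2 males, 2 females), and the labels name no treatment. Total RNA depleted of ribosomal RNA was sequenced, and reads were counted per gene. The sources used here give neither the type of Krt9 allele nor the strain, and whether each library is 1 animal is not stated either, so p-values measure the spread between these libraries.

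Libraries held 28947715 to 41004173 counts. Krt9 itself stood at 25.2, 7.74 and 11.5 CPM (counts scaled to library size with TMM factors) in Krt9-/- P3, against 32.9 to 83.0 CPM in WT P3, and at 6.08 and 5.32 CPM in Krt9-/- P0, against 2.09 to 7.61 CPM in WT P0. Its RNA was thus present in the libraries labelled null and did not separate the genotypes on P0, while the keratin Krt19 did so on both days (48.9 to 209 CPM in Krt9-/- and 0.865 to 1.95 CPM in WT). Xist, of the inactive X chromosome, was at 0.181 CPM and Ddx3y, of the Y chromosome, at 0.155 CPM in WT P0 replicate 4, which is labelled female. The columns of the deposited table form 2 alphabetical runs, run A with 8 libraries and run B with 6. No label states what the runs are, but libraries of run B stood apart for many members, so values within each run stand beside the results. Run A holds Krt9-/- P3 replicate 2, WT P3 replicates 2 to 4, Krt9-/- P0 replicate 1 and WT P0 replicates 1 to 3. Run B holds the other 6 libraries, 2 in each P3 group and 1 in each P0 group, so that each run has arms of a single library.

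The 38 genes together took 1.33% to 2.36% of all counts in Krt9-/- P3, 1.00% to 1.57% in WT P3, 1.13% and 1.31% in Krt9-/- P0 and 1.06% to 2.09% in WT P0. Lor, which encodes loricrin, the main protein of the envelope, alone gave 27.4% to 49.9% of the members' counts in a library. On a scale of CPM per kilobase of exon, Lor was the first member in each of the 4 groups, at 3898 ± 975 (SD, n = 3) in Krt9-/- P3, 2282 ± 371 (n = 5) in WT P3, 2364 ± 570 (n = 2) in Krt9-/- P0 and 4703 ± 1705 (n = 4) in WT P0. Lce1m was the second in each group, at 1615 ± 575 in Krt9-/- P3, 1020 ± 256 in WT P3, 1054 ± 72.9 in Krt9-/- P0 and 1209 ± 318 in WT P0, always below Lor by more than the SD of either. Of the members tested, Sprr3 was the scarcest, with at most 1.26 CPM in any library.

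**Figure D1:**
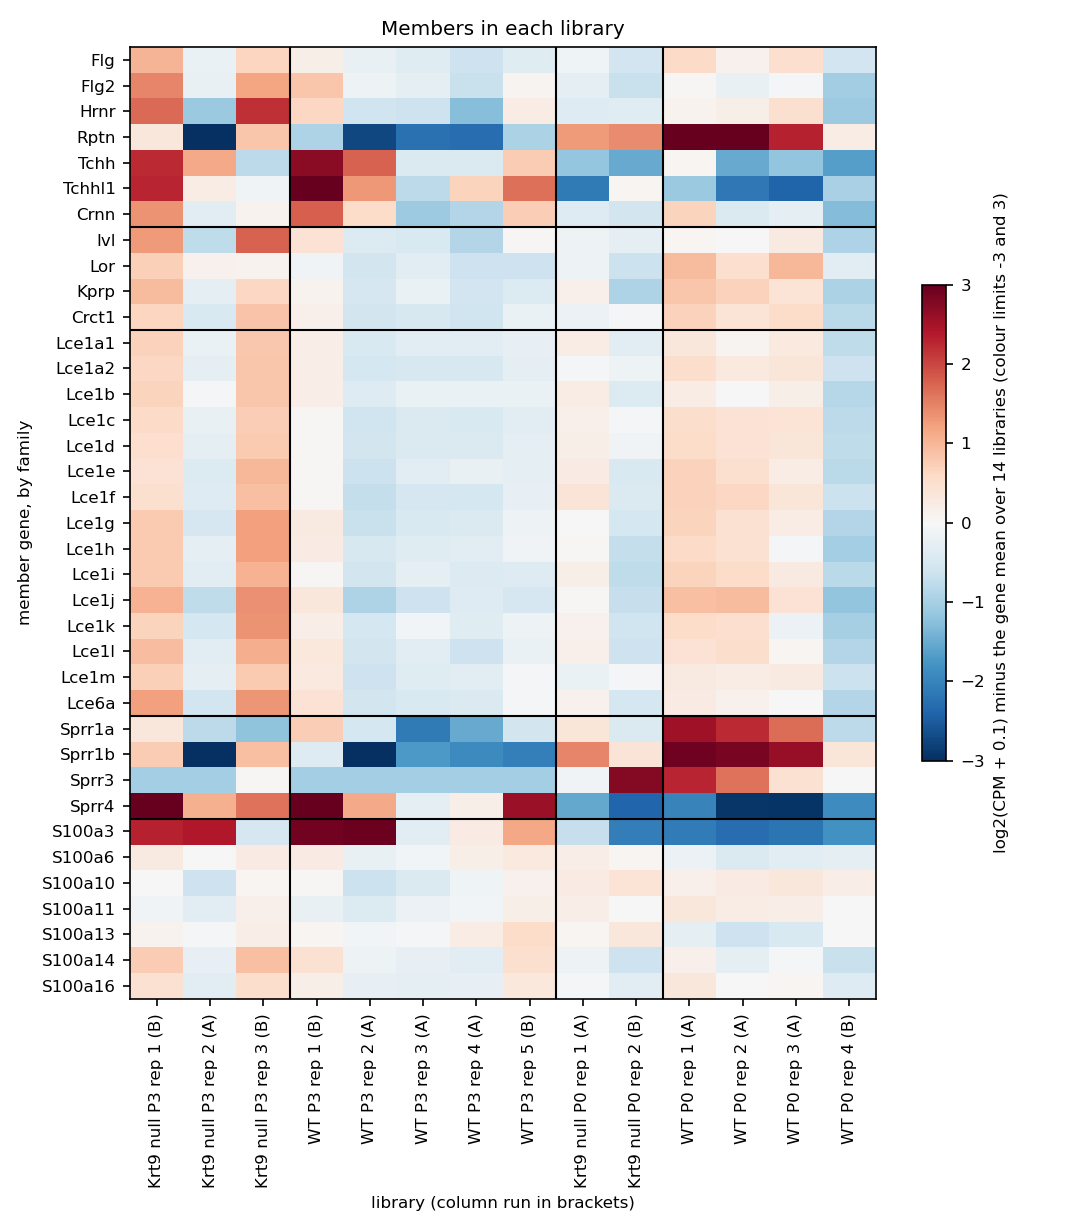
Each cell is log2(CPM + 0.1) of 1 member in 1 library minus the mean of that member over the 14 libraries, with families separated by lines and the column run in brackets. Most envelope precursors and LCE genes share 1 pattern, high in Krt9-/- P3 replicates 1 and 3 and in WT P0 replicates 1 to 3, while Tchh, Sprr4 and S100a3 differ mainly by day. Rptn and Sprr1b differ by day in WT paws, but Krt9-/- P3 replicates 1 and 3 also lie above every WT P3 library.

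Day was compared first in WT paws, where the groups are largest. From birth to P3, 11 of the 37 tested members passed the test in WT paws by edgeR's quasi-likelihood test at an adjusted p under 0.05 (29.7%), where 16.6% of all genes tested did so. Of these, 6 were higher on P3 (Tchh, Tchhl1, Sprr4, S100a3, S100a6 and S100a13) and 5 were lower (Lor, Rptn, Sprr1a, Sprr1b and Sprr3), against 8.49% and 8.07% of all genes. The median log2 fold change of the members was -0.32, beside -0.01 for all genes tested. Members called lower encode envelope precursors, and those called higher are S100 proteins, hair follicle proteins and 1 small proline-rich protein.

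**Figure D2:**
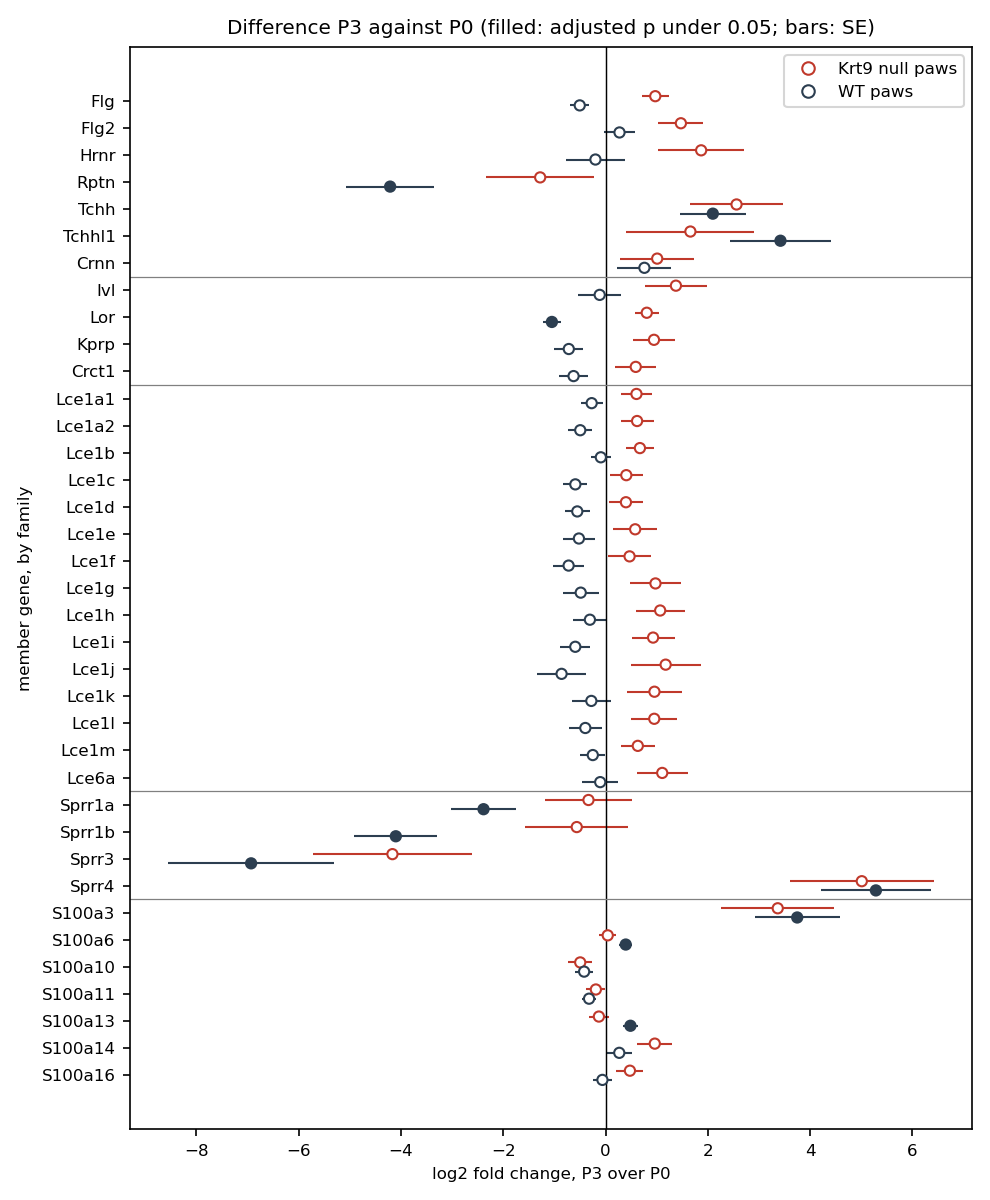
Log2 fold change of P3 over P0 with its SE for each tested member, in Krt9-/- paws (red) and in WT paws (dark blue), where filled points had an adjusted p under 0.05. All 15 LCE genes lie right of 0 in Krt9-/- paws and left of 0 in WT paws (2 of the 15 turn above 0 in WT when scaled by library size only), and the filled points are the 11 members called in WT paws. In both genotypes each of the 15 LCE genes had opposite signs in column runs A and B.

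Lor stood at 5061, 3730.2, 4403, 3571 and 3535 CPM in the 5 WT P3 libraries, against 10508, 7822, 10842 and 4294 CPM in the 4 WT P0 libraries. The WT P0 libraries other than replicate 4 were all above every WT P3 library, and replicate 4 lay among them. The log2 fold change of P3 over P0 was -1.05 (SE 0.17, 2.07-fold lower, edgeR's adjusted p = 0.00172). It was -1.27 within run A and -0.29 within run B. In bulk tissue, fewer cells of a type and less RNA per cell cannot be told apart. As a share of the counts of Krt10, a keratin of the same suprabasal cells, Lor was at 44.4% to 76.1% in WT P3 and 85.7% to 106% in WT P0, without overlap between the days.

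Rptn encodes repetin, an S100-fused envelope protein. It was at 17.1, 4.79, 6.82, 6.61 and 16.7 CPM in WT P3, against 276, 297, 162 and 37.7 CPM in WT P0. Each WT P3 library was below each WT P0 library, a separation that 7.73% of all genes tested also showed in the lower direction. Rptn fell by 4.21 on the log2 scale (SE 0.87, 18.5-fold, edgeR's adjusted p = 0.0106), with -5.30 within run A and -1.02 within run B. Its counts were 0.419% to 1.59% of those of Flg in WT P3 and 4.16% to 20.1% in WT P0.

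The small proline-rich genes Sprr1a and Sprr1b, whose products bridge other envelope proteins, were both called lower on P3 in WT paws. Sprr1b was at 60.9, 9.02, 23.8, 21.1 and 18.9 CPM in WT P3, against 600.4, 568, 483 and 102 CPM in WT P0, and the days did not overlap. It was lower by a log2 fold change of -4.10 (SE 0.81, or 17.2-fold, with edgeR's adjusted p = 0.00917). Sprr1a was at 81.8, 33.9, 11.2, 16.9 and 33.5 CPM in WT P3 and at 284, 232, 157 and 28.2 CPM in WT P0. WT P0 replicate 4 lay inside the P3 range of Sprr1a. Its log2 fold change was -2.39 (SE 0.64, 5.23-fold lower, edgeR's adjusted p = 0.0305), and it stood at -3.41 within run A but at 0.19 within run B. Sprr3 had no count in the 5 WT P3 libraries, against 0.888, 0.527, 0.179 and 0.103 CPM in WT P0. Sprr3 pooled over WT P0 (0.433 CPM) was 24.8-fold above a floor of 3 counts over the WT P3 group (0.0175 CPM). That fold holds for the pooled level only, since single WT P0 libraries spread from 0.103 to 0.888 CPM. The day test gave edgeR's adjusted p = 0.0170. Sprr3 passed the filter on low counts only through P0 libraries, so the filter and the direction of its call are not independent.

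The stretches just upstream of these genes are shown because 1 short motif, described next, was found in most of the members called lower on P3. RefSeq start sites were matched for 33 of the 38 members (37 promoters, build GRCm38.p6), leaving out S100a10, S100a14, Crct1, Kprp and Lce1f, and the 250 bases before each start were searched on both strands. The AP-1 motif TGANTCA was in 29.7% of the members' promoters (11 of 37) and in 6.75% of all 32851 promoters of the table. It was found upstream of Lor, Rptn, Sprr1a and Sprr1b, which are 4 of the 5 members called lower, and upstream of 1 of the 6 called higher, Tchhl1. Sprr3, also called lower, held no match. The motif was also found upstream of Flg, Flg2, Crnn, Ivl, S100a11 and S100a16, which were not called in WT paws. It was thus not confined to members called lower. The sequences of Sprr3 and Tchhl1 are not printed below. By family, 5 of 7 S100-fused genes, 2 of 3 other envelope precursors, 2 of 4 small proline-rich genes, 2 of 5 S100 genes and 0 of 14 LCE genes held it. The TATA motif TATAAA was in 35.1% of the members' promoters and in 12.4% of all. CCAAT was in 18.9% against 33.8%, the E-box CANNTG in 75.7% against 66.2%, the GATA motif AGATAA in 16.2% against 9.99% and the KLF motif CCNCNCCC in 24.3% against 45.9%. The sequences below run 5′ to 3′ on the strand of the gene, with AP-1 and TATA matches in capitals. They lie at chr3:92083143-92083392 (Lor, minus strand), chr3:93393449-93393698 (Rptn, plus), chr3:92485882-92486131 (Sprr1a, minus), chr3:92438780-92439029 (Sprr1b, minus), chr3:93442080-93442329 (Tchh, plus) and chr3:92500494-92500743 (Sprr4, minus).
Lor: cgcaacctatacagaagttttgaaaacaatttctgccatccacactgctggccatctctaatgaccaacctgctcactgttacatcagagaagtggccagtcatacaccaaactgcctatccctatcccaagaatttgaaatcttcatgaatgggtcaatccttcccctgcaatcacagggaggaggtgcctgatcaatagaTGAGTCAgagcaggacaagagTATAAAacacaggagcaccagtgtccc
Rptn: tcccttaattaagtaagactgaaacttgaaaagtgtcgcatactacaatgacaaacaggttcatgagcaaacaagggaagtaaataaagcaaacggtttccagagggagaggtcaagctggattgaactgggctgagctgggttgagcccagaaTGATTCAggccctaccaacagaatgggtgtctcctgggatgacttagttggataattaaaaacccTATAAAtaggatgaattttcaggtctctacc
Sprr1a: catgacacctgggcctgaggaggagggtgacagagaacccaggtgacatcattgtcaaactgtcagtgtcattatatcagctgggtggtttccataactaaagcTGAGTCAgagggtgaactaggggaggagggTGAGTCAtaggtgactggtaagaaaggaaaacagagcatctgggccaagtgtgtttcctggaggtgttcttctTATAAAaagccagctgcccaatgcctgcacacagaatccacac
Sprr1b: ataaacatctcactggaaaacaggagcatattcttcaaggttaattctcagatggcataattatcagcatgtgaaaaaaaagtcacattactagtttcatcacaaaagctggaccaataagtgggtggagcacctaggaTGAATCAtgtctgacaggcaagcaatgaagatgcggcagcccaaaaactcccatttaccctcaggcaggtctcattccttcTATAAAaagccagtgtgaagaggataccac
Tchh: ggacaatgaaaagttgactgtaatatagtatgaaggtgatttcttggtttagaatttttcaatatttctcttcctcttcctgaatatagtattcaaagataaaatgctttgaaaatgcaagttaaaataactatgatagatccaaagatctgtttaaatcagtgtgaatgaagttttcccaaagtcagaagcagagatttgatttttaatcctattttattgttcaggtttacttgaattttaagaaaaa
Sprr4: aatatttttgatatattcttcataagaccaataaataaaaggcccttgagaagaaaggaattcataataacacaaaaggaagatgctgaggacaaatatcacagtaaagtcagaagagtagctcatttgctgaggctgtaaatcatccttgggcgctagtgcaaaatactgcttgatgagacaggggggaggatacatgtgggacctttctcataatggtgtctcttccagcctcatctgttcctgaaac
The AP-1 match starts 48 bases before the start site in Lor, 96 in Rptn, 111 in Sprr1b and 146 and 116 in Sprr1a. Tchh and Sprr4 hold neither motif in this window, nor do S100a6 and S100a13. S100a3, also called higher, holds a TATA match 52 bases before a start site. Tchhl1 holds AP-1 without TATA, and Sprr3, called lower, holds TATA without AP-1. TATA was thus not confined to members called lower. A match describes the letters only, and no binding was measured here.

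Of the other S100-fused genes, Flg, Hrnr, Flg2 and Crnn did not pass in WT paws. Flg encodes profilaggrin, the precursor of filaggrin, and was at 1524, 1143, 1039.8, 865 and 1046 CPM in WT P3, against 1991, 1475, 1909 and 906 CPM in WT P0. Its log2 fold change of -0.51 (SE 0.19) did not pass, with edgeR's adjusted p = 0.0829. Hrnr encodes hornerin, a filaggrin-like protein. It stood at 838, 356, 351, 222 and 635 CPM in WT P3 and at 578, 606, 749 and 253 CPM in WT P0, with the days overlapping throughout (log2 fold change -0.20, SE 0.58). Flg2, for filaggrin 2, had 381 ± 162 CPM (SD, n = 5) in WT P3 and 306 ± 90.0 CPM (n = 4) in WT P0, and Crnn, for cornulin, 14.2 ± 11.4 CPM and 8.24 ± 4.71 CPM. Parts of Flg, Flg2 and Hrnr repeat themselves (16.8%, 22.6% and 24.3% of their 75-base stretches occur more than once within the gene), and the sources used here do not say how reads that map to several places were counted.

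Tchh, for trichohyalin of the inner root sheath of the hair follicle, was at 576, 300.1, 65.0, 65.3 and 149.7 CPM in WT P3, against 91.2, 30.9, 38.8 and 28.0 CPM in WT P0. Its log2 fold change was 2.10 (SE 0.64, 4.28-fold higher), and edgeR's adjusted p of 0.0498 sat at the threshold and was lost in 19 of 29 alternatives. Tchhl1, a trichohyalin-like gene, was at 26.9, 5.85, 1.30, 3.79 and 7.54 CPM in WT P3 and 1.02, 0.451, 0.357 and 1.14 CPM in WT P0 (log2 fold change 3.42, SE 0.98, edgeR's adjusted p = 0.0380). Markers of the inner root sheath moved with both genes: 8 of 9 were called higher on P3, among them Krt28, Krt73 and Krt71 at log2 fold changes of 4.10, 4.50 and 4.23, and their summed level was 374 to 1829 CPM in WT P3 and 58.7 to 139 CPM in WT P0, with none at 0. Tchh counts were 52.5% to 80.6% of those of Krt71 in WT P3 and 175% to 487% in WT P0. The part of the follicle markers in these results was not tested.

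S100a3, for a calcium-binding protein of the hair cuticle, was at 139.8, 144, 14.9, 22.3 and 41.9 CPM in WT P3, against 4.31, 3.76, 4.00 and 5.23 CPM in WT P0. Every WT P3 library was above every WT P0 library (8.96% of all genes tested were separated in this direction), and WT P3 replicates 1 and 2 were the highest. The log2 fold change was 3.75 (SE 0.83, 13.4-fold, edgeR's adjusted p = 0.0145). Sprr4, a small proline-rich gene, was at 13.8, 2.17, 0.761, 1.06 and 6.12 CPM in WT P3, and at 0.157, 0.0376, 0.0357 and 0.181 CPM in WT P0, where the 4 libraries hold 15 counts in all. It was higher by a log2 fold change of 5.29 (SE 1.07, edgeR's adjusted p = 0.00838), opposite in direction to the other 3 small proline-rich genes. Sprr4 passed the filter on low counts only through P3 libraries, so the filter and the direction of its call are not independent. Markers of hair shaft and nail were called higher for 3 of 11 (Krt35, Msx2 and Hoxc13), at a summed 159.7 to 1089 CPM in WT P3 and 151 to 262 CPM in WT P0, and their part in the rise of S100a3 was not tested.

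The remaining S100 genes, small calcium-binding proteins expressed in many cell types, had log2 fold changes below 0.5 in size where they were called. S100a13, which takes part in the release of proteins without a signal peptide, was at 21.6, 19.6, 20.4, 24.3 and 30.5 CPM in WT P3 and 17.1, 13.7, 15.3 and 21.0 CPM in WT P0 (log2 fold change 0.49, SE 0.14, edgeR's adjusted p = 0.0340). S100a6, for calcyclin, averaged 203 ± 29.9 CPM (SD, n = 5) in WT P3 and 155 ± 10.8 CPM (n = 4) in WT P0 (log2 fold change 0.39, SE 0.12, edgeR's adjusted p = 0.0417). Both calls were lost in several alternatives, 8 of 29 for S100a13 and 11 of 29 for S100a6. S100a10, the partner of annexin A2, was at 543, 337, 389.8, 484 and 578 CPM in WT P3 and 590.0, 627, 672 and 611 CPM in WT P0. Its days did not overlap, but the log2 fold change of -0.42 (SE 0.17) did not pass (edgeR's adjusted p = 0.108). S100a16 was at 359.9, 265, 262, 265 and 391 CPM in WT P3 and 398, 320.1, 329 and 240.1 CPM in WT P0 (log2 fold change -0.06, SE 0.19). S100a11 and S100a14 did not pass, and S100a11 shares 37.8% of its 75-base stretches with genes that are not among the members.

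Among the 15 LCE genes, whose products are late additions to the envelope, none was called in WT paws, and all 15 had a log2 fold change below 0, between -0.86 (Lce1j) and -0.09 (Lce1b), while 2 of the 15 were above 0 when only library size was used for scaling. That scaling moved the median of all genes to 0.10, against -0.01 with TMM. Each of the 15 had opposite signs in column runs A and B. With an epithelial marker score as a covariate, Lce1m and Lce1a1 were above 0, at 0.44 and 0.40. Lce1m was at 1341, 717, 845, 874 and 1062 CPM in WT P3, against 1314, 1268, 1309.8 and 696 CPM in WT P0. WT P0 replicate 4 was the lowest of all 9 WT libraries for Lce1m, and the other 3 WT P0 libraries lay close together. Lce1a1 was at 430.3, 276, 297, 301 and 319.5 CPM in WT P3 and 479.8, 398, 462 and 222 CPM in WT P0. The other 13 averaged from 25.5 CPM (Lce1k) to 237 CPM (Lce1a2) in WT P3 and from 30.5 CPM (Lce1k) to 332 CPM (Lce1a2) in WT P0. Lce1 genes other than Lce1m share 0.936% to 13.5% of their 75-base stretches with another gene, so reads may be split among them. Crct1, for a cysteine-rich protein of the same cluster, was at 604, 366, 389.9, 356 and 469 CPM in WT P3 and 875, 721, 793 and 307 CPM in WT P0, and did not pass (log2 fold change -0.63, SE 0.29). Kprp and Ivl, for keratinocyte proline-rich protein and involucrin, did not pass either.

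The WT day result depended on the libraries used. Within run A alone 28 members were called lower and 3 higher, with a median of -0.71, where 30.0% of all genes were called in either direction. Within run B alone 2 were lower and 12 higher, with a median of 0.72, where 17.1% of all genes were called. In run B, WT P0 is 1 library, replicate 4, and 1 residual degree of freedom is left, so its values and the signs shared by both runs rest on that library. Those with the same sign in both runs were Tchh, Tchhl1, Sprr4, S100a3, S100a6 and S100a13, higher, and Lor, Rptn, Sprr1b, Sprr3 and S100a10, lower, and the other 26 had opposite signs. Without WT P0 replicate 4, the library whose sex markers did not match its label, 12 were lower and 4 higher, where 19.4% of all genes were called, and the median was -0.50. Without WT P0 replicate 2 the median was -0.15. When an epithelial marker score was a covariate, none of the 11 was called, and 0.439% of all genes were. The fold changes of these 11 in that fit kept their signs, with 5.50 for Sprr4, 2.84 for Tchhl1, 2.62 for S100a3, -2.17 for Sprr1b, -1.81 for Rptn and -0.58 for Lor on the log2 scale. The members as a whole turned sign: 31 of 37 were above 0, with a median of 0.45. Without the covariate 28 of 37 were below 0, with a median of -0.32. Epithelial markers summed to 6951 to 8867 CPM in WT P3 and 6725 to 11929 CPM in WT P0, with 5 of 14 called lower, and suprabasal markers to 11765 to 20986 CPM and 12766 to 28785 CPM, with 2 of 9 called lower (Sbsn and Krt78) and 1 higher (Krt2). Skeletal muscle markers were called lower for 5 of 9 (median -1.19), at a summed 1900.2 to 3400.0 CPM in WT P3 and 4216 to 12663 CPM in WT P0. Neutrophil and macrophage markers were called higher for 6 of 9 (median 1.45), at a summed 361 to 547 CPM in WT P3 and 175 to 291 CPM in WT P0. None of either list was at 0, and the part of these lists in the members' results was not tested.

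Genes that act with the members were read beside them in WT paws. Of 14 envelope assembly genes, 4 were lower on P3 and none higher: Tgm1, for the transglutaminase of the epidermis that cross-links the envelope, fell by 1.16 on the log2 scale (SE 0.29), Cnfn, for cornifelin, by 1.41 (SE 0.26), Evpl, for envoplakin, by 0.55 (SE 0.14) and Cdsn, for corneodesmosin, by 0.95 (SE 0.29). Of 12 filaggrin processing genes, 3 were higher and 1 lower. The peptidylarginine deiminase genes Padi3 (log2 fold change 3.86, SE 0.77) and Padi1 (0.72, SE 0.22) and the protease gene St14 (0.55, SE 0.15) were higher, and the protease gene Furin was lower (-0.72, SE 0.23). Padi3 is also 1 of the 9 inner root sheath markers, as is Gata3 of the regulators named next. Of 15 regulators of the cluster, Maf was higher (0.50, SE 0.11), and Satb1 (-0.43, SE 0.12) and Trp63 (-0.40, SE 0.13) were lower. All of these had edgeR's adjusted p under 0.05 over all genes tested. In this comparison 16.6% of all genes were called, 8.49% higher and 8.07% lower, and the calls among the regulators were near that share. The same shares apply to the marker lists above.

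In Krt9-/- paws none of the 37 members was called between the days by edgeR, where 0.768% of all genes were (0.338% higher). At an unadjusted p under 0.05 there were 15 members (40.5%), where 15.9% of all genes were, and DESeq2 called 6 members higher and 5.06% of all genes in either direction. The median log2 fold change of P3 over P0 was 0.81, beside -0.01 for all genes, and 30 of 37 values were above 0. Without Krt9-/- P3 replicate 3 that median was 0.40. Lor was at 8938, 5968 and 5898 CPM in Krt9-/- P3, against 4922 and 3487 CPM in Krt9-/- P0 (log2 fold change 0.81, SE 0.24, edgeR's adjusted p = 0.127), and the days did not overlap. Of all genes tested, 11.8% were separated in this direction and 13.8% in the other. The members so separated were Lor, Flg2, Tchh, Crnn, Sprr4 and S100a3, higher, and Rptn and S100a10, lower.

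For several members the day values of Krt9-/- paws had the sign seen in WT paws. Sprr4 was at 12.6, 2.06 and 3.09 CPM in Krt9-/- P3 and 0.258 and 0.101 CPM in Krt9-/- P0 (log2 fold change 5.01, SE 1.41). S100a3 was at 93.2, 99.1 and 13 CPM in Krt9-/- P3 and 11.5 and 4.33 CPM in Krt9-/- P0 (3.37, SE 1.10). Tchh stood at 414, 194 and 51.2 CPM in Krt9-/- P3 and 39.0 and 31.0 CPM in Krt9-/- P0 (2.56, SE 0.90). Replicate 3 of Krt9-/- P3 was the lowest of its group in S100a3 and Tchh, and its inner root sheath markers also had the lowest sum, 234 CPM beside 1365 and 1151 CPM. Rptn was at 40.9, 2.69 and 58.2 CPM in Krt9-/- P3 and 78.5 and 86.8 CPM in Krt9-/- P0 (-1.28, SE 1.06). Of the genes that act with the members, Tgm3, for a transglutaminase of the envelope and the hair follicle, was higher on P3 (1.83, SE 0.26, edgeR's adjusted p = 0.0133), as was Padi1 (1.64, SE 0.31, edgeR's adjusted p = 0.0294). Within run A the median of the members was -0.29, from 1 library on each day, and within run B it was 1.04.

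On P3, no member was called between Krt9-/- and WT paws by edgeR, where 0.00463% of all genes were, that is 1 gene. At an unadjusted p under 0.05 there were 23 members (62.2%), where 6.67% of all genes were, and DESeq2 called 2 higher, Lor and Flg, and 0.120% of all genes. The median log2 fold change of Krt9-/- over WT was 0.83, beside -0.01 for all genes, and 35 of 37 values were above 0. Without a filter on low counts 24 members were called higher, where 1.71% of all genes were called in either direction. Without Krt9-/- P3 replicate 2, the only library of run A in its group, 5 were called higher, where 0.921% of all genes were called, and without Krt9-/- P3 replicate 3 the median was 0.49 and none was called. Adding the epithelial score as a covariate gave a median of 0.29.

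Lor was at 8938, 5968 and 5898 CPM in Krt9-/- P3, against 5061, 3730.2, 4403, 3571 and 3535 CPM in WT P3. It was the only member whose Krt9-/- P3 libraries were all above the WT P3 libraries, as were 1.3% of all genes tested. The log2 fold change was 0.89 (SE 0.18, edgeR's adjusted p = 0.423), and it was 0.83 within run A and 0.79 within run B. Per count of Krt10, Lor was at 58.5%, 116% and 41.7% in Krt9-/- P3 and 44.4% to 76.1% in WT P3, and so overlapped. Flg was at 2705, 1171 and 2092 CPM in Krt9-/- P3, against 865 to 1524 CPM in WT P3 (log2 fold change 0.94, SE 0.21, edgeR's adjusted p = 0.471), with 0.46 within run A and 0.92 within run B. Krt9-/- P3 replicate 2 lay within the WT range of Flg.

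All 15 LCE genes had a log2 fold change above 0 on P3 under each of the 4 scalings tried. With TMM the values lay between 0.70 (Lce1m) and 1.24 (Lce1j), and none was called. Between column runs A and B, Lce1e, Lce1g, Lce1j, Lce1k and Lce6a had opposite signs. Lce1m was at 1801, 904 and 1892 CPM in Krt9-/- P3, against 717 to 1341 CPM in WT P3. Lce1a1 was at 606, 330.5 and 664 CPM in Krt9-/- P3, against 276 to 430.3 CPM in WT P3. For both genes replicates 1 and 3 exceeded every WT library and replicate 2 did not. Crct1 had the same shape, at 842, 395 and 984 CPM in Krt9-/- P3, against 356 to 604 CPM in WT P3, and so did Hrnr, at 1746, 249 and 2450.2 CPM, against 222 to 838 CPM in WT P3.

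Krt9-/- P3 replicate 2 was the lowest of its group in Sprr1b and Rptn. Sprr1b was at 134, 9.31 and 149 CPM in Krt9-/- P3, against 9.02 to 60.9 CPM in WT P3 (log2 fold change 2.05, SE 0.81, edgeR's adjusted p = 0.726), with -1.07 within run A and 2.03 within run B. Rptn was at 40.9, 2.69 and 58.2 CPM, against 4.79 to 17.1 CPM in WT P3, with -1.39 within run A and 1.54 within run B. Sprr1a was at 62.1, 28.3 and 21.0 CPM in Krt9-/- P3, inside the WT range of 11.2 to 81.8 CPM. Sprr3 had 3 counts in all in Krt9-/- P3 and 0 in WT P3, too few for a fold. Among the S100 genes, S100a10 was at 533, 344 and 554 CPM, S100a16 at 437, 251 and 454 CPM and S100a13 at 22.5, 20.5 and 24.2 CPM in Krt9-/- P3, with log2 fold changes of 0.02, 0.33 and -0.10.

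**Figure D3:**
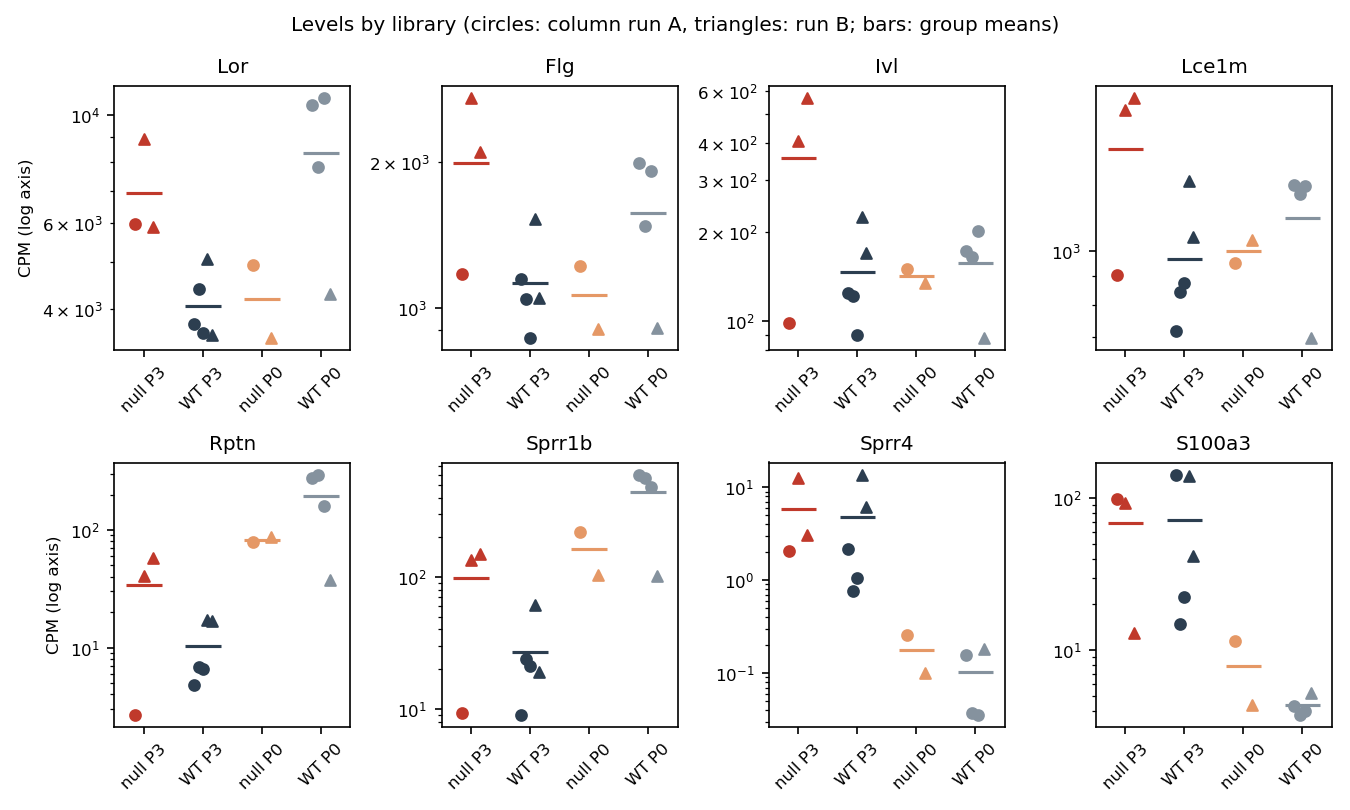
CPM of 8 members in each library on a log axis, by group, with circles for column run A, triangles for run B and a bar at each group mean. In Lor the Krt9-/- P3 points are all above the WT P3 points, while in Flg, Ivl, Lce1m, Rptn and Sprr1b the lone run A library of Krt9-/- P3 lies with or below the WT libraries.

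Over both runs, 18 members had a log2 fold change above 0 in run A and in run B on P3, 3 were below 0 in both and 16 had opposite signs. The medians were 0.12 within run A and 0.79 within run B. Suprabasal markers had the same sign: all 9 had a log2 fold change above 0, none was called, and their sum was 37745, 13099.8 and 35272 CPM in Krt9-/- P3, against 11765 to 20986 CPM in WT P3. None of the list was at 0 in any group. Their part in the result was not tested. Genes that act with the members were also above 0 on P3, 14 of 14 for envelope assembly with a median of 0.85, 12 of 12 for filaggrin processing with 0.78 and 13 of 15 for the regulators with 0.33, and none was called. Dsg1a and Dsc1 are in both the envelope assembly and the suprabasal list, so these lists are not separate. Those of highest mean level were Dmkn, for dermokine (1.09, SE 0.47), Dsp, for desmoplakin (0.77, SE 0.25), Asprv1, for a protease that cuts profilaggrin (1.04, SE 0.39), Blmh, for bleomycin hydrolase (1.11, SE 0.44), Klf4, for a factor needed for the skin barrier (0.64, SE 0.32) and Cebpa (0.33, SE 0.15).

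**Figure D4:**
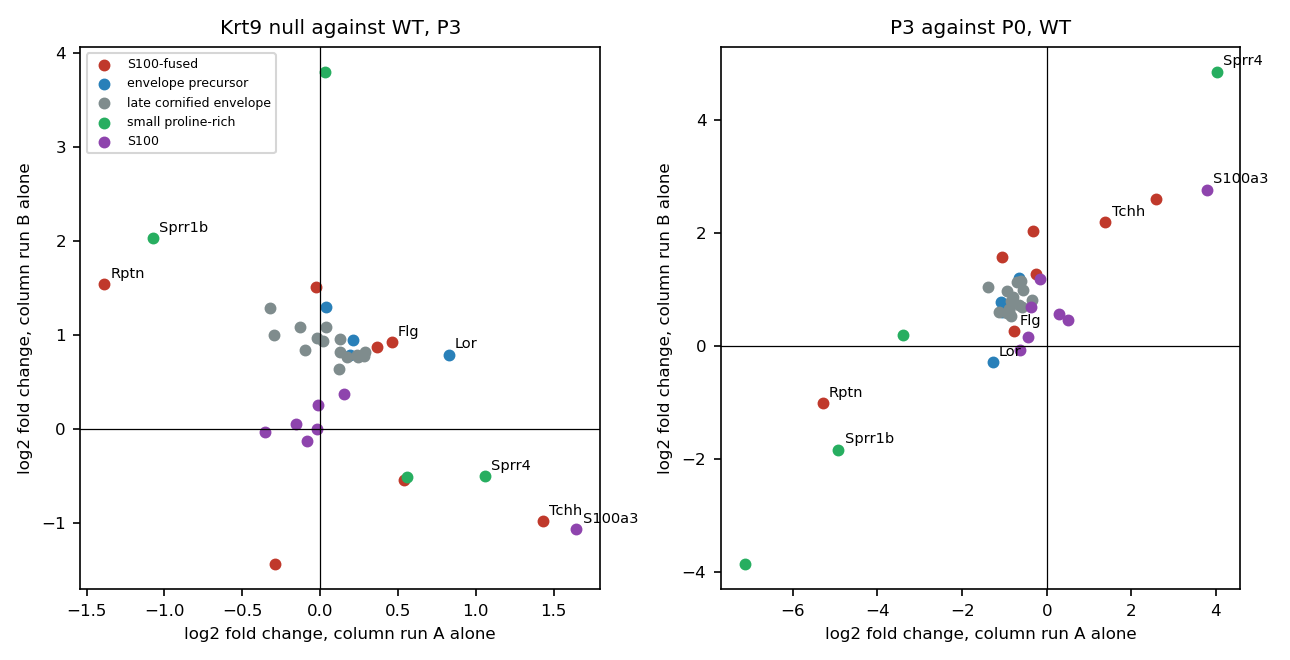
Log2 fold change of each tested member within column run A (x) and within run B (y), for Krt9-/- over WT on P3 (left) and for P3 over P0 in WT paws (right), coloured by family. On the left Lor and Flg are above 0 in both runs and most LCE genes are near 0 in run A. On the right most members, the labelled Flg among them, are below 0 in run A and above 0 in run B, while the other labelled members have the same sign in both runs.

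On P0, none of the 37 members was called between Krt9-/- and WT paws by edgeR, where 0.00463% of all genes were. At an unadjusted p under 0.05 there were 4 (10.8%), where 5.96% of all genes were. DESeq2 called 1 member lower, Lor, and 0.0416% of all genes. The median log2 fold change was -0.20, beside 0.00 for all genes, and 30 of 37 values were below 0. Lor was at 4922 and 3487 CPM in Krt9-/- P0, against 10508, 7822, 10842 and 4294 CPM in WT P0 (log2 fold change -0.96, SE 0.23, edgeR's adjusted p = 0.831), with -1.08 within run A and -0.29 within run B. It was the only member below 0 in both runs. WT P0 replicate 4 overlapped the Krt9-/- libraries, and without it the median of the members was -0.39. That median was -0.12 without WT P0 replicate 1 and -0.09 without WT P0 replicate 2, and it was above 0, at 0.23, with the epithelial score as a covariate.

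Other members on P0 lay within or near the WT spread. Flg was at 1219 and 905 CPM in Krt9-/- P0, against 1991, 1475, 1909 and 906 CPM in WT P0. Rptn was at 78.5 and 86.8 CPM, against 37.7 to 297 CPM in WT P0, and Sprr1b at 220.5 and 104 CPM, against 102 to 600.4 CPM. S100a6, at 219 and 199 CPM in Krt9-/- P0 and 141 to 167 CPM in WT P0, and S100a13, at 21.8 and 26.3 CPM in Krt9-/- P0 and 13.7 to 21.0 CPM in WT P0, were the members with no overlap. Both were higher in Krt9-/- P0, as were 6.47% of all genes tested by this measure, and no member was lower throughout, as were 4.82% of all genes (log2 fold changes 0.43, SE 0.16, and 0.52, SE 0.18, and neither was called). Lce1m was at 951 and 1049 CPM in Krt9-/- P0 and Lce1a1 at 438 and 302 CPM, both inside the WT range, and all 15 LCE genes had a log2 fold change below 0 (median -0.31), 12 of 15 when scaled by library size only, which moved the median of all genes to 0.11. Suprabasal markers summed to 16288 and 8542 CPM in Krt9-/- P0 and 12766 to 28785 CPM in WT P0. Their part was not tested.

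**Figure D5:**
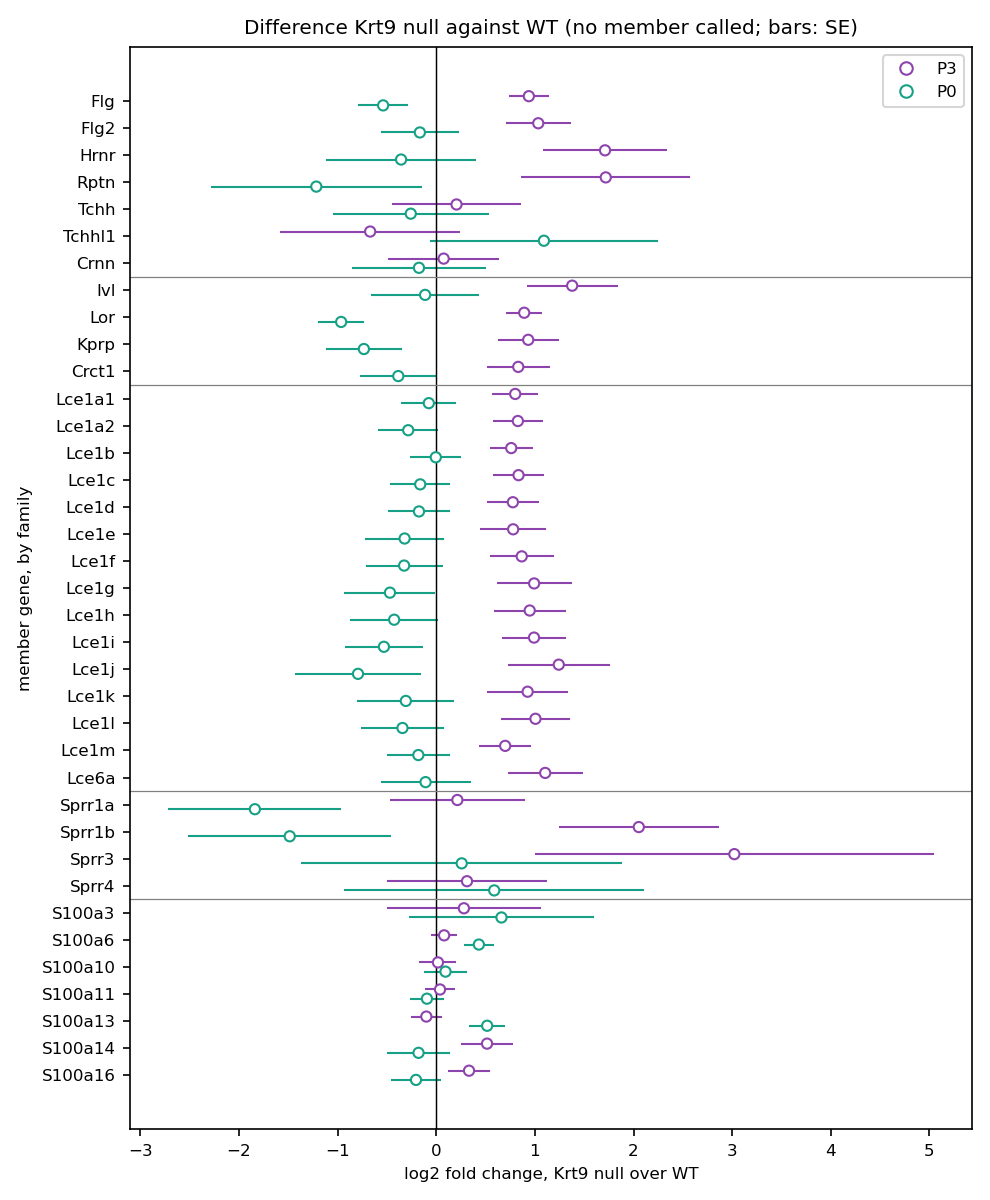
Log2 fold change of Krt9-/- over WT with its SE for each tested member on P3 (purple) and on P0 (green). No member was called on either day, and the envelope precursors and LCE genes lie right of 0 on P3 and at or left of 0 on P0, where 3 LCE genes and 1 other precursor turn above 0 when scaled by library size only. On P3, Lce1e, Lce1g, Lce1j, Lce1k and Lce6a had opposite signs in column runs A and B. On P0, Lor was the only member below 0 in both runs.

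The interaction asked whether the genotype difference on P3 exceeded that on P0. No member was called by edgeR, where 0% of all genes were, 18 members (48.6%) had an unadjusted p under 0.05, where 7.6% of all genes did, and DESeq2 called 2 higher, Lor and Flg, and 0.393% of all genes. The members had a median of 1.19, beside -0.02 for all genes, and 31 of 37 values were above 0. Lor had an interaction of 1.86 (SE 0.30, unadjusted p = 1.73e-05, edgeR's adjusted p = 0.119), with 1.90 within run A and 1.08 within run B, both from fits with arms of 1 library. Flg had 1.48 (SE 0.33, edgeR's adjusted p = 0.354), with 1.13 and 0.91. By family the median was 1.20 for the S100-fused, 1.58 for the other envelope precursors, 1.19 for the LCE and -0.08 for the S100 genes. It was 2.41 for the 4 small proline-rich genes, which ranged from -0.28 to 3.54 and include the scarce Sprr3. S100a13 (-0.62, SE 0.24) and Tchhl1 (-1.76, SE 1.47) were among the 6 members below 0. The genotype differences of the 2 days do not share libraries, and with the run as a term over all 14 libraries the members' median was 1.19. Within single runs, which have arms of 1 library, it was 0.32 in run A and 0.31 in run B, and with the epithelial score as a covariate it was 0.047. Without WT P0 replicate 4 the median was 1.33 and 1 member, Lor, was called, where 0.221% of all genes were. Without Krt9-/- P3 replicate 3 the median was 0.77 and none was called.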

How the data were processed

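The authors deposited 1 table of raw read counts per gene for 14 libraries, whose values were checked to be whole numbers. Per the submitters' processing notes, STAR 2.7.10a, featureCounts, edgeR, limma and build GRCm39 were used. The sources used here do not give the annotation release, strand setting, filters or handling of multi-mapping reads. Without a stated strand setting, reads of a gene and of an antisense partner cannot be told apart.

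Groups were genotype and day as labelled. Genes kept by filterByExpr (21619 of 56691, minimum count 10) were scaled by TMM and fitted in 1 model of the 4 groups with sex as a covariate, leaving 9 residual degrees of freedom, by edgeR 4.0.16's quasi-likelihood test with robust dispersions in R 4.3.3. P-values were adjusted by Benjamini-Hochberg over all genes tested, with calls at an adjusted p under 0.05. No label names a batch, and the column runs were read from the table's column order. The alternatives used other scaling or filters, DESeq2 1.42.0, limma 3.58.1 (voom), other covariates, litter number as a replicate block, the column runs, only the groups compared, or 1 library fewer. The litter number was read from the digit after the day in each title, and the titles do not name it as a litter. WT P3 replicates 2 and 3 share a number, as do Krt9-/- P0 replicate 1 and WT P0 replicate 1. P0 and P3 libraries with the same number shared a block. Scripts were tested on simulated data. Intervals from counts cover counting error only.

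A GENCODE annotation of GRCm38, another build than the authors' GRCm39, gave symbols for 52073 IDs, exon lengths and shared 75-base stretches. Promoters came from a RefSeq table of GRCm38.p6. Values in every library are given for the 2 members of highest mean CPM in each family and for up to 3 members called in each direction of each comparison with the smallest adjusted p. Other called members are named with group values or fold changes, and values by library of Tchh, Tchhl1, Sprr3 and S100a6 were added after their values were seen. In companion lists, up to 3 called genes, or the 2 of highest mean CPM, are named by the same rule, and Cdsn and Furin were added after their values were seen. Members and lists were chosen with earlier results of these data known. Python 3.11.15 with pandas 2.3.3, NumPy 2.4.6 and matplotlib 3.10.9 did the remaining steps.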

Additional observations from a re-analysis of the deposited data

Results flagged for a closer look

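In groups of 4 or 5 libraries, 4 values lay far from the rest of their group by Dixon's ratio of gap to range at the 95% level, over 18 named members and 36 groups, where chance flags about 1 in 20 groups. Lce1m was at 696 CPM in WT P0 replicate 4, below the other 3 at 1268 to 1314 CPM. The other 3 values were the highest of WT P3 and belonged to replicate 1. There, Lce1a1 was at 430.3 CPM, above 275.8 to 319.5 CPM in the other 4 libraries. Sprr1b was at 60.9 CPM, above 9.02 to 23.8 CPM. Tchhl1 was at 26.9 CPM, above 1.30 to 7.54 CPM. Both libraries belong to column run B.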

How the results depend on the processing

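Of the 11 members called between the days in WT paws, Lor and Rptn kept their call in 28 of 29 alternatives each, all but the epithelial covariate. Of 29 alternatives, the call was lost in 2 for Sprr1b, 3 for Sprr4, 4 for S100a3 and 9 for Tchhl1. It was lost in 8 for Sprr1a and S100a13, 11 for S100a6 and 19 for Tchh. Sprr1a also turned sign in 1 more, and Sprr3 lost its call in 3 of 27. Counts of members called differed as follows. Without a filter on low counts, 6 were lower in Krt9-/- on P0, 24 higher on P3, 17 lower in the WT day comparison, 23 higher and 2 lower by day in Krt9-/- paws, and 24 higher and 1 lower for the interaction. In these comparisons, in that order, 0.494%, 1.71%, 11.4%, 4.60% and 1.68% of all genes were called in either direction. DESeq2 called 1 lower on P0, 2 higher on P3, 6 higher by day in Krt9-/- paws and 2 higher for the interaction. It called 0.0416%, 0.120%, 5.06% and 0.393% of all genes in these comparisons. With the epithelial covariate the WT day counts were 0 higher and 0 lower, and the interaction median was 0.047. The WT day median turned sign, to 0.45 from -0.32. With only the groups compared, 3 were lower by day in WT paws, where 20.5% of all genes were called. Litter number as a replicate block left 2 higher in that comparison and changed no other count by over 1.5 times (consensus correlation -0.054). With the run as a term, 2 were higher by day in Krt9-/- paws, where 4.95% of all genes were called, and 1 for the interaction, where 0.0324% were.

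Run A alone gave medians of -0.30 on P0, 0.12 on P3, -0.71 by day in WT, a reversed -0.29 by day in Krt9-/- and 0.32 for the interaction. Run B alone gave 2 higher and 1 lower on P0, 11 and 3 on P3, 12 and 2 by day in WT with a median of 0.72, 13 and 3 by day in Krt9-/-, and 3 and 3 for the interaction with a median of 0.31. In these run B comparisons, in that order, 1.44%, 8.77%, 17.1%, 22.6% and 2.64% of all genes were called in either direction. Each run has arms of 1 library, and run B sets 1 library against 1 on P0. The run B fit leaves 1 residual degree of freedom, so its calls rest on few libraries. Members that turned sign and were called in run B alone or with all libraries were Lce1m to 0.60 and Rptn to 1.22 on P0, Sprr1a to -0.52 on P3, Flg to 0.26, Lce1m to 0.72, Sprr1a to 0.19 and S100a16 to 0.70 by day in WT, and Sprr1a to -0.88 for the interaction. Other values turned sign without a call, among them Sprr1b to -1.07 and Rptn to -1.39 on P3 in run A alone. Leaving out 1 library at a time gave 0 to 5 higher on P3, 1 to 6 higher and 3 to 12 lower by day in WT, 0 to 3 higher by day in Krt9-/- and 0 to 2 higher for the interaction. The 5 on P3, the 3 by day in Krt9-/- and the 2 for the interaction came without Krt9-/- P3 replicate 2, where 0.921%, 2.97% and 0.0599% of all genes were called. The 12 lower by day in WT came without WT P0 replicate 4 (19.4% of all genes called). The 1 higher by day in WT came without WT P0 replicate 3 (7.49% of all genes called). The higher count by day in WT was also 2 without WT P0 replicate 1, WT P0 replicate 2 or WT P3 replicate 5 and 3 without WT P3 replicate 1, and the lower count was 3 without WT P0 replicate 1. In these 4 fits, in the order named, 8.32%, 9.12%, 11.1% and 13.8% of all genes were called. The causes were not tested. Sprr3, with at most 1.26 CPM in any library, is limited by depth.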
